A study of Homo sapiens with 12 samples.

Results

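The nuclear genes of the mitochondrial respiratory chain and ATP synthase were followed in MOLT4 cells, an established human line of T-cell acute lymphoblastic leukemia. Members were found by gene symbol: NDUFA, NDUFB, NDUFC, NDUFS or NDUFV with a number for complex I, SDHA to SDHD for complex II, UQCR for complex III, COX4 to COX8 with a letter for complex IV, and ATP5 for complex V, without hyphenated symbols. Of 23619 genes in the table, 88 matched: 38 for complex I, 4 for complex II, 10 for complex III, 17 for complex IV and 19 for complex V. A mean of 1 FPKM (fragments per kilobase of transcript, scaled by library) or more over all 12 libraries was reached by 80 of them, and only these were tested: 37, 4, 10, 11 and 18 in the order of the complexes. Not every symbol stands for a subunit. NDUFA4 is named for complex I and is now counted in complex IV, and 8 matched genes are pseudogenes, relatives or other proteins that share the stem of the name.

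The respiratory chain moves electrons from NADH and succinate to oxygen and pumps protons across the inner mitochondrial membrane. Complex I takes electrons from NADH and complex II from succinate, complex III passes them from ubiquinol to cytochrome c, complex IV reduces oxygen, and complex V, the ATP synthase, uses the proton gradient to make ATP. Complexes I, III, IV and V combine nuclear-encoded subunits with subunits encoded in mitochondrial DNA, whereas all subunits of complex II are nuclear. Promoters of nuclear subunit genes are known for sites of the regulators NRF1, GABPA (an ETS factor) and YY1.

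Each of 4 groups had 3 libraries of poly(A)-selected RNA, taken when the cells had spent 6 h with 0.1% DMSO as vehicle or with the compound at 250 nM, namely in SNS-032, in THAL-SNS-032 or in NVP-2. Values for the compounds are given in that order unless a name stands beside them. SNS-032 inhibits several cyclin-dependent kinases, CDK9 among them. THAL-SNS-032 joins the same inhibitor through a linker to a thalidomide-type ligand that recruits cereblon, a substrate receptor of an E3 ligase. NVP-2 inhibits CDK9. CDK9 is the kinase of P-TEFb, which releases paused RNA polymerase II into elongation. All libraries are of 1 cell line, and separate cultures are not mentioned in the labels, so the spread that p-values rest on is that between these libraries and may be technical.

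The promoters below come from RefSeq (GRCh38.p14), each 300 bases, from 250 before the annotated start to 50 after it. They are shown because these genes mark the ends of the range of changes described further on. NDUFV2, SDHA and, with THAL-SNS-032 and NVP-2 but not SNS-032, UQCRFS1 are among the members with the largest falls. COX8A and UQCRQ are among those with the smallest. Capitals mark matches, on either strand, to 4 short motifs: GCGCANGCG for the core of an NRF1 site, CCGGAAG for an ETS site, AANATGGCG for YY1 and GGGCGGG for a GC box of SP1. TATAAA was searched as well, and matches of different motifs may overlap.
NDUFV2, chr18:9102449-9102748, plus strand: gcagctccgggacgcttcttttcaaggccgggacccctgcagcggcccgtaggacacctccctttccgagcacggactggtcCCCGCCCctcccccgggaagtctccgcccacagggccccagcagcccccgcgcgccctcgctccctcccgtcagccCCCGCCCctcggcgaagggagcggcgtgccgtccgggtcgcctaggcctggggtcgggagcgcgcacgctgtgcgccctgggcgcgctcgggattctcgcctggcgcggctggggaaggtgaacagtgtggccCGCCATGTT
UQCRFS1, chr19:29213102-29213401, minus strand: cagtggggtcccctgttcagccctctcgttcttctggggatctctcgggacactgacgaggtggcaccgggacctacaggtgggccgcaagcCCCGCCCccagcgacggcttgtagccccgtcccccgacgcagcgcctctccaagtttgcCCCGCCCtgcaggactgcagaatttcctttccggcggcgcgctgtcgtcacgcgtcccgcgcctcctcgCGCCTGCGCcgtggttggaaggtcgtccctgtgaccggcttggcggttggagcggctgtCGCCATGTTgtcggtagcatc
SDHA, chr5:218070-218369, plus strand: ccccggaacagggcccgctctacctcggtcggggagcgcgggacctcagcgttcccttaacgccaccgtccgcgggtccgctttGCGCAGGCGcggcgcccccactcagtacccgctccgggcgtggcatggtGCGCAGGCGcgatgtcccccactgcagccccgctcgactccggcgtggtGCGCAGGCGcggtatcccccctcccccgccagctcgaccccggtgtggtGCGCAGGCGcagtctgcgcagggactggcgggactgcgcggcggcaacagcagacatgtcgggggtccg
COX8A, chr11:63974370-63974669, plus strand: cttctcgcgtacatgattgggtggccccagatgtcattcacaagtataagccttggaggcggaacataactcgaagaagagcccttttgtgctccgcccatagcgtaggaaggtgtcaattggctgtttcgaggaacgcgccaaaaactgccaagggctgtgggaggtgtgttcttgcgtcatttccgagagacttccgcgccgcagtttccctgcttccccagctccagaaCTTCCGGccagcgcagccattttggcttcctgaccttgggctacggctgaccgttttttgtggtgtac
UQCRQ, chr5:132866392-132866691, plus strand: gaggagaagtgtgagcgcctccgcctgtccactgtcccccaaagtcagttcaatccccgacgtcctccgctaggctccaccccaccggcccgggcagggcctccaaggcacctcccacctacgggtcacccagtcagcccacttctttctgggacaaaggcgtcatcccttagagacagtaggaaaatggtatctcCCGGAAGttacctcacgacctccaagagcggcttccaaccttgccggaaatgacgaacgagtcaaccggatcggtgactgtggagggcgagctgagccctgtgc
NDUFV2 and UQCRFS1 each carried a YY1 match in the 50 bases after the start, in reverse orientation, and 2 GC boxes further up, and UQCRFS1 also had an NRF1 match. SDHA held 4 NRF1 matches, each written identically, at positions 85, 134, 183 and 232 of the window. COX8A and UQCRQ each held 1 ETS match and no match to the other motifs. ATP5E, another member with small falls, is not printed. Its window held 2 GC boxes, at positions 82 and 180, and no other match, so GC boxes were not confined to the large falls. Nor were ETS matches confined to the small falls, as NDUFS3, a member with large falls, held an ETS and a YY1 match. The windows of ATP5SL, with large falls, and of NDUFA4, with small falls, held no match to any of the motifs.

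All 14 T-lineage marker genes examined were at 1 FPKM or more in DMSO, with a sum between 5675 and 7035 FPKM, while 0 of 11 myeloid, erythroid, fibroblast or epithelial markers and 1 of 4 B-cell markers (CD79A, 9.07 FPKM) were. The medians of the spike-in RNAs (ERCC) lay between -0.027 and 0.038 (log2) of the DMSO mean in every library. On that scale the median of all 11381 tested genes lay lower with each compound, at -1.92, -1.90 and -2.54. Within its group, SNS-032 replicate 1 lay low at -2.32, against -1.68 and -1.77 in replicates 2 and 3. No counts were given beside the FPKM, so the depth behind a value is unknown. Changes below are differences in mean log2(FPKM + 1), which understate the change of low genes. Their SE comes from 1 limma fit over all tested genes, with p-values adjusted by Benjamini-Hochberg. "Relative to the median gene" means that the median difference from DMSO of all tested genes was first taken out of each library.

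Nearly all members fell with each compound, and the median member fell less than the median gene. SNS-032 lowered 79 of 80 tested members, where 94.6% of all tested genes were called lower, and raised 0, where 1.54% of all genes were called higher. THAL-SNS-032 lowered 75 (94.8% of all genes) and raised 0 (1.37%). NVP-2 lowered 80 (97.1%) and raised 0 (0.448%). At an unadjusted p under 0.05 in limma the number of members higher was 0 for each compound too. These shares of called genes are near the background, so the members differ from it in size and not in being called. The fall was 2-fold or more for 61, 45 and 79 members, against 87.0%, 84.8% and 94.5% of all tested genes. In bulk RNA, fewer cells of a type and less RNA per cell cannot be told apart.

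The median change of the 80 members was -1.30, -1.04 and -1.95. Once relative to the median gene, these medians turned to 0.63, 0.87 and 0.59, with 13 members lower and 58 higher for SNS-032 (41.5% and 40.9% of all genes), 10 and 66 for THAL-SNS-032 (41.9% and 41.9%) and 16 and 53 for NVP-2 (42.7% and 42.4%). So the direction given for a complex or a gene below is that on the spike-in level scale, and most turn over once the shift of all genes is removed. The 3 comparisons share the DMSO libraries. Summed over the tested members, the level was 45789 ± 4539 FPKM (SD, n = 3) in DMSO, 21454 ± 5718 under SNS-032, 24117 ± 1839 under THAL-SNS-032 and 13242 ± 1501 under NVP-2. The same sums made up 1.33% to 1.49% of the summed FPKM of all genes in the DMSO libraries, 1.81% to 1.91% under SNS-032, 1.74% to 1.92% under THAL-SNS-032 and 2.03% to 2.12% under NVP-2. The shares of the compound libraries thus did not overlap those of DMSO.

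Among the complexes, complex IV had the smallest median fall and complex II the largest with all 3 compounds. With SNS-032 the medians were -1.41 for complex I, -2.03 for complex II, -1.13 for complex III, -1.04 for complex IV and -1.37 for complex V. THAL-SNS-032 gave -1.21, -1.70, -0.96, -0.79 and -1.12 in the same order, and NVP-2 gave -2.18, -2.67, -1.85, -1.59 and -2.04. In each of the 9 compound libraries the median of complex II was the lowest of the 5 and that of complex IV the highest. Complex II has 4 members, so its median rests on few genes. Complex II, relative to the median gene, stood at -0.11, 0.20 and -0.13 and complex IV at 0.88, 1.11 and 0.95.

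**Figure D1:**
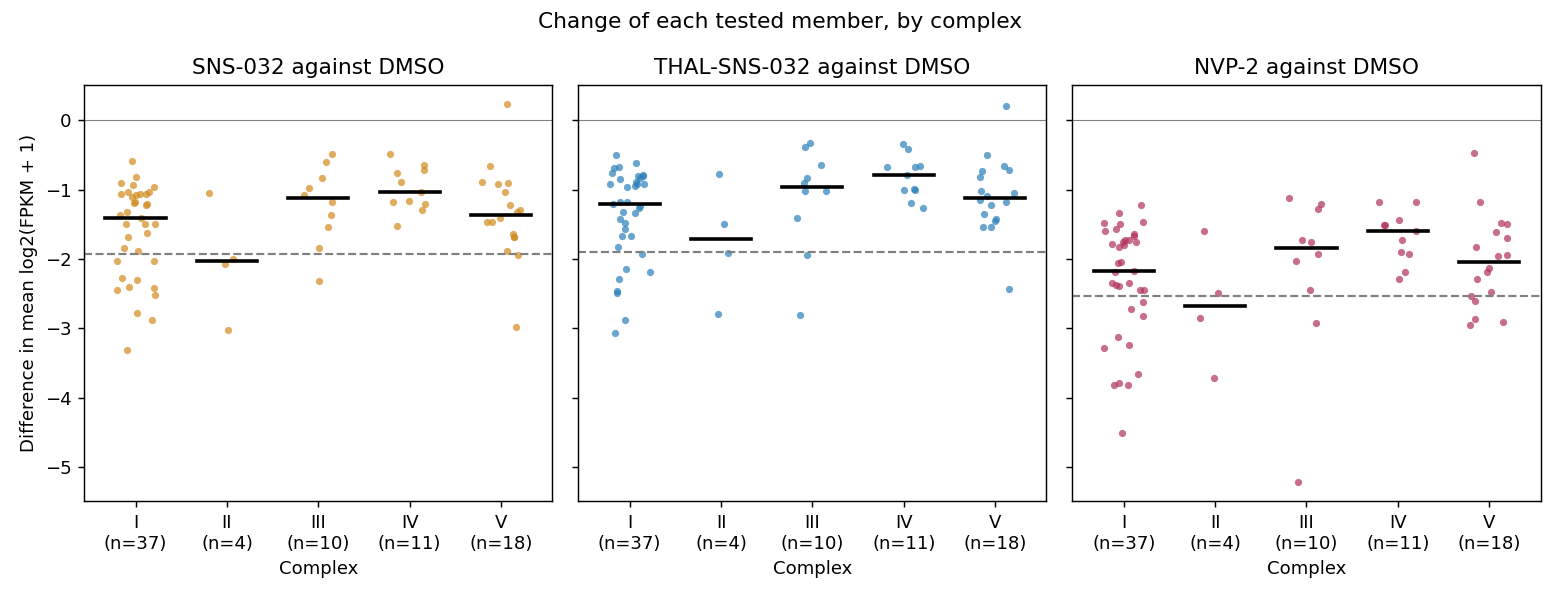
Difference from DMSO in mean log2(FPKM + 1) of each tested member (points), by complex, with a panel for each compound. Black bars are medians of a complex and the dashed line is the median of all tested genes: most points lie above the dashed line, and so above 0 once relative to the median gene, while the points of complex I spread from -4.51 to -1.22 with NVP-2.

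**Figure D2:**
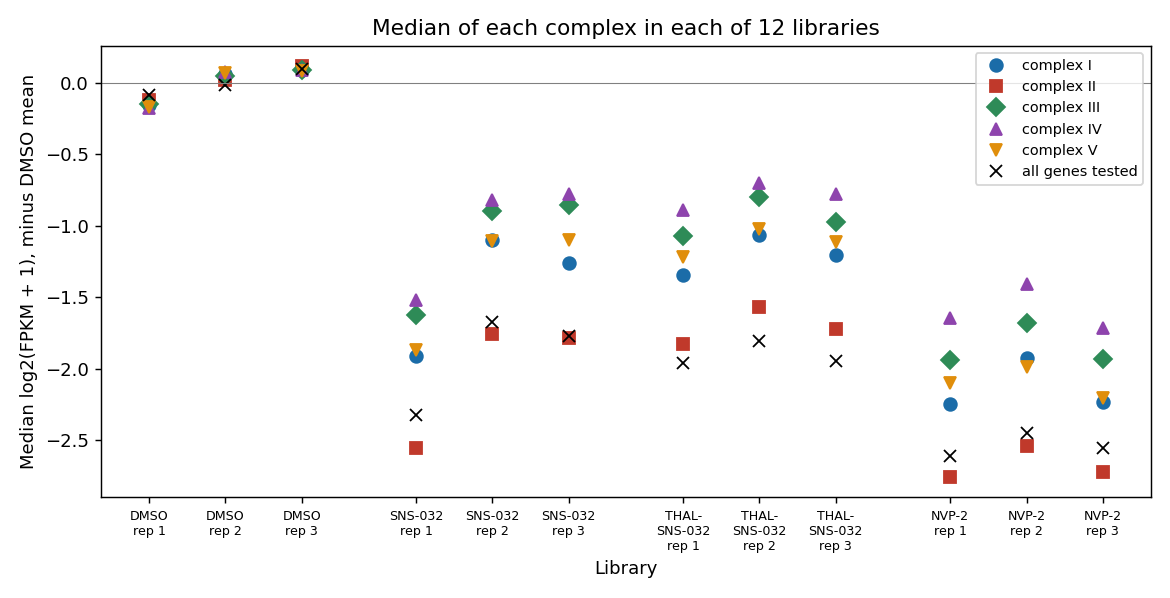
Median of each complex in each of the 12 libraries, as log2(FPKM + 1) minus the DMSO mean, with the median of all tested genes as crosses. SNS-032 replicate 1 is low in every complex, complex IV is the highest and complex II the lowest of the complexes in each compound library, and complexes I, III, IV and V lie above the crosses there, so that their direction turns over relative to the median gene.

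Complex I has a matrix arm, which oxidises NADH and hands electrons to ubiquinone, and a membrane arm, which pumps protons. All 16 tested matrix arm genes and all 20 membrane arm genes fell with each compound, as 94.6%, 94.8% and 97.1% of all tested genes did. The median of the matrix arm was -2.03, -1.67 and -2.58, and that of the membrane arm -1.18, -0.93 and -1.79. The matrix arm, relative to the median gene, stood at -0.10, 0.24 and -0.044 and the membrane arm at 0.74, 0.98 and 0.75. In every compound library the median of the matrix arm lay below that of the membrane arm, for example at -2.41 and -1.61 in NVP-2 replicate 2. The arms were assigned from textbook structure after the values were known, and no test of the difference was made.

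NDUFV2 encodes an iron-sulfur subunit of the NADH-oxidising tip and is the member of complex I with the largest fall with THAL-SNS-032 and NVP-2. Its level was 321, 344 and 375 FPKM in DMSO, 31.4, 57.3 and 54.4 under SNS-032, 35.7, 47.1 and 39.7 under THAL-SNS-032, and 13.0, 15.6 and 14.2 under NVP-2. The NVP-2 libraries lay below all others, and those of SNS-032 and THAL-SNS-032 overlapped. The changes from DMSO were -2.88, -3.06 and -4.51 (SE 0.21 each, largest adjusted p = 4.5e-09, limma), which left 13.8%, 11.8% and 4.10% of the DMSO mean.

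NDUFS3, a core subunit of the matrix arm, measured 319.7, 359 and 367 FPKM in DMSO, 50.8, 87.1 and 81.6 under SNS-032, 68.7, 83.8 and 75.9 under THAL-SNS-032, and 25.2, 30.6 and 24.8 under NVP-2. The NVP-2 libraries were the lowest and those of SNS-032 and THAL-SNS-032 overlapped, all below DMSO. NDUFS1, which carries iron-sulfur clusters of the electron path, changed by -2.30, -1.67 and -2.44 (SE 0.19), NDUFS3 by -2.27, -2.18 and -3.65 and the accessory subunit gene NDUFS4 by -2.51, -2.29 and -3.81 (SE 0.20 for both). NDUFS1 turned to 0.24 for THAL-SNS-032 and to 0.099 for NVP-2 relative to the median gene, while NDUFV2, NDUFS3 and NDUFS4 stayed below 0 for each compound.

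At the other end of complex I stood NDUFA4, the member now placed in complex IV. It went from 88.2, 92.6 and 99.1 FPKM in DMSO to 45.8, 71.0 and 71.8 under SNS-032, 61.2, 71.1 and 64.7 under THAL-SNS-032, and 36.1, 44.5 and 38 under NVP-2 (-0.59, -0.50 and -1.22, SE 0.19). The groups did not overlap DMSO, but the THAL-SNS-032 call was lost without DMSO replicate 3 (-0.46, adjusted p = 0.060, limma) or THAL-SNS-032 replicate 1 (-0.45, adjusted p = 0.065). The SNS-032 change was -0.38 without SNS-032 replicate 1. NDUFA13, a membrane arm subunit also known as GRIM-19, had the highest DMSO level of complex I, 995 ± 127 FPKM (SD, n = 3), and changed by -1.03, -0.80 and -1.72 (SE 0.21), or 0.89, 1.10 and 0.82 relative to the median gene.

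In complex II all 4 genes fell with each compound, which is near the share of all genes (94.6%, 94.8% and 97.1%). The catalytic subunits, which oxidise succinate, had medians of -2.55, -2.35 and -3.28 and the membrane anchors -1.52, -1.14 and -2.05, a contrast that was not tested. SDHA, the flavoprotein, was 126, 153 and 159 FPKM in DMSO, 11.6, 20.6 and 20.1 under SNS-032, 18.8, 22.6 and 19.4 under THAL-SNS-032, and 9.52, 11.1 and 9.72 under NVP-2. The compound libraries lay far below DMSO, and SNS-032 and THAL-SNS-032 overlapped. SDHA changed by -3.03, -2.79 and -3.72 (SE 0.20) and SDHB, the iron-sulfur subunit, by -2.07, -1.91 and -2.85 (SE 0.20). SDHA has near-identical pseudogene copies, and how reads shared with them were assigned is not given in the sources used here.

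SDHC and SDHD encode the anchors. SDHC stood at 76.1, 77.8 and 85.4 FPKM in DMSO, 27.2, 43.7 and 46.3 under SNS-032, 42.6, 51.0 and 44.9 under THAL-SNS-032, and 23.6, 27.9 and 25.5 under NVP-2. That is a change of -1.05, -0.78 and -1.60 (SE 0.19), against -1.99, -1.50 and -2.49 (SE 0.21) for SDHD. SDHA and SDHB, relative to the median gene, stayed at or below 0 (SDHB at -0.0047 with THAL-SNS-032) and SDHC was at 0.88, 1.13 and 0.94, while SDHD was at -0.068, 0.40 and 0.044.

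UQCRFS1 of complex III encodes the Rieske iron-sulfur protein, through which electrons leave ubiquinol. Its level was 259, 299.7 and 313 FPKM in DMSO, 66.2, 129 and 114 under SNS-032, 36.7, 46.3 and 39.0 under THAL-SNS-032, and 6.66, 7.46 and 6.37 under NVP-2. The 4 groups did not overlap at all. The changes were -1.54, -2.81 and -5.22 (SE 0.22), the last being the largest fall of any member with any compound, and the mean with NVP-2 was 2.35% of that in DMSO. Measured relative to the median gene, UQCRFS1 was at 0.39 with SNS-032 and stayed below 0 with the other compounds.

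The core protein UQCRC1 fell from 239 ± 24.2 FPKM (SD, n = 3) to 47.9 ± 10.7, 61.8 ± 6.66 and 30.7 ± 2.65 (-2.31, -1.93 and -2.92, SE 0.19), and relative to the median gene it stayed below 0, at -0.030 with THAL-SNS-032. The 5 small subunits of complex III had medians of only -0.97, -0.84 and -1.73, or 0.95, 1.07 and 0.81 relative to the median gene. Among them UQCRQ was at 204, 235 and 237 FPKM in DMSO, 102, 179.6 and 176 under SNS-032, 155, 186 and 174 under THAL-SNS-032, and 97.9, 118 and 95.1 under NVP-2. It fell with SNS-032 (-0.60, SE 0.21, adjusted p = 0.013, limma) and NVP-2 (-1.11) and did not pass with THAL-SNS-032 (-0.39, adjusted p = 0.088), although the THAL-SNS-032 libraries lay below those of DMSO. Without SNS-032 replicate 1, which enters the pooled spread, UQCRQ passed with THAL-SNS-032 (adjusted p = 0.0039, limma) and its SNS-032 change was -0.33. UQCRH, the hinge protein and highest in DMSO of complex III (1357 ± 122 FPKM), changed by -1.08, -0.90 and -1.93 (SE 0.21).

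Complex IV had 11 tested members, all lower with SNS-032 and NVP-2 and 9 lower with THAL-SNS-032, and relative to the median gene all 11 were higher with each compound. Of all tested genes, 94.6%, 94.8% and 97.1% were lower, and relative to the median gene 40.9%, 41.9% and 42.4% were higher. Isoforms of particular tissues were near the lowest values in the table. COX4I2, COX6A2, COX6B2, COX7A1, COX7B2 and COX8C did not pass the filter, at 0.886 FPKM or less in every library, whereas COX4I1, COX6A1, COX6B1, COX7A2, COX7B and COX8A had DMSO means from 412 to 1522 FPKM. ATP5L2 and NDUFA4L2 were the other members too low to test.

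COX8A was the least changed subunit of complex IV with SNS-032 and THAL-SNS-032. It read 909, 1205 and 1247 FPKM in DMSO, 576, 908 and 957 under SNS-032, 813, 959 and 865 under THAL-SNS-032, and 476, 565 and 435 under NVP-2. SNS-032 and THAL-SNS-032 overlapped DMSO, through DMSO replicate 1, and NVP-2 did not. COX8A fell with NVP-2 (-1.18, SE 0.21) and passed narrowly with SNS-032 (-0.48, adjusted p = 0.039, limma), a call lost without SNS-032 replicate 1 (-0.25, adjusted p = 0.13), DMSO replicate 2 (-0.42, adjusted p = 0.11), DMSO replicate 3 (-0.40, adjusted p = 0.13), THAL-SNS-032 replicate 3 (adjusted p = 0.053) or NVP-2 replicate 1 (adjusted p = 0.052), or without a filter (adjusted p = 0.077). The THAL-SNS-032 value of -0.34 did not pass (adjusted p = 0.13) but did without SNS-032 replicate 1 (adjusted p = 0.031).

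COX6C changed by -0.64 with SNS-032 and -1.18 with NVP-2 (SE 0.21), and its -0.42 with THAL-SNS-032 did not pass (adjusted p = 0.074, limma), but passed without SNS-032 replicate 1 (adjusted p = 0.0022), where the SNS-032 change was -0.37. COX7C, the most abundant transcript of complex IV, went from 2793 ± 249 FPKM (SD, n = 3) to 1540.0 ± 422, 1746 ± 105 and 986 ± 104 (-0.90, -0.68 and -1.50, SE 0.20). COX5A fell the most of complex IV, by -1.52, -1.27 and -2.28 (SE 0.19), and was at 0.41, 0.64 and 0.26 relative to the median gene.

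**Figure D3:**
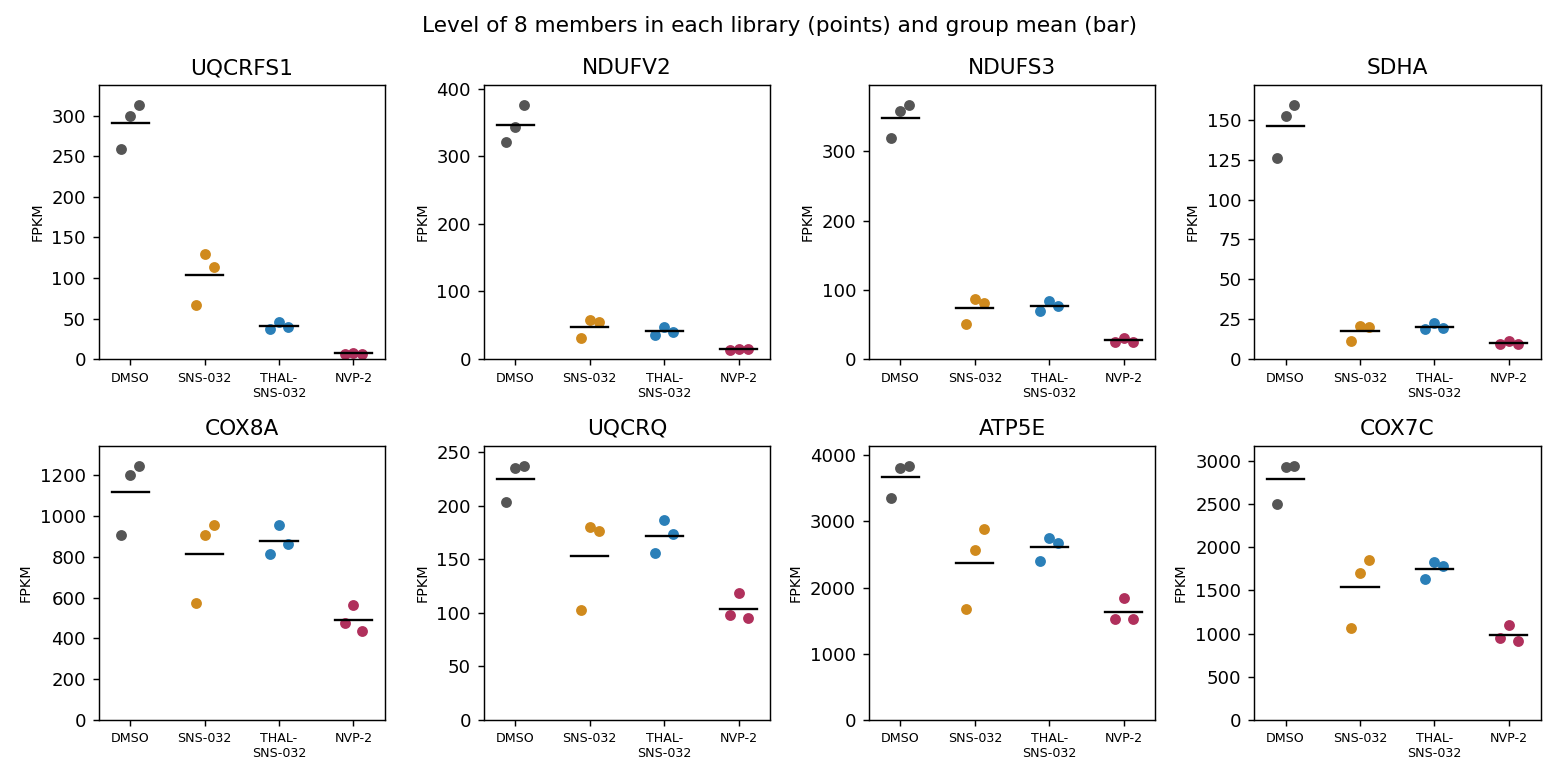
FPKM of UQCRFS1, NDUFV2, NDUFS3, SDHA, COX8A, UQCRQ, ATP5E and COX7C in each library (points) with the group mean (bars), on linear axes from 0. The top row shows members with large falls, for UQCRFS1 with THAL-SNS-032 and NVP-2 only. The bottom row shows members with small falls, which turn above 0 relative to the median gene. UQCRFS1 is the only panel of the 8 in which all 4 groups are apart.

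In complex V the small membrane subunits had smaller median falls than the head, the peripheral stalk and the c ring, a difference that was not tested. The 5 F1 genes, the catalytic head and central stalk, had medians of -1.46, -1.18 and -2.13, the 4 peripheral stalk genes -1.48, -1.26 and -2.36, the 3 genes for the c ring -1.41, -1.05 and -2.28, and the 3 small membrane subunits -0.91, -0.71 and -1.49. These were, relative to the median gene, 0.46, 0.72 and 0.41 for F1, 0.44, 0.65 and 0.18 for the peripheral stalk, 0.51, 0.85 and 0.25 for the c ring, and 1.01, 1.19 and 1.05 for the small membrane subunits. Within F1, ATP5A1, the alpha subunit, fell the most (-1.88, -1.54 and -2.87) and ATP5E, the epsilon subunit, the least (-0.66, -0.49 and -1.17, SE 0.19).

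ATP5E had the highest level of any member. Its libraries were 3359.9, 3811 and 3839 FPKM in DMSO, 1673, 2566 and 2889 under SNS-032, 2402, 2748 and 2671 under THAL-SNS-032, and 1520.4, 1844 and 1523 under NVP-2. No compound library reached a DMSO library. The SNS-032 change was -0.43 without SNS-032 replicate 1. The THAL-SNS-032 call (adjusted p = 0.024, limma) was lost without THAL-SNS-032 replicate 1 (-0.44) or DMSO replicate 2 (-0.46) or 3 (-0.46), and without a filter (adjusted p = 0.071).

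ATP5G1, ATP5G2 and ATP5G3 encode the same mature c subunit from separate genes. ATP5G1 went from 708 ± 99.8 FPKM (SD, n = 3) in DMSO to 292 ± 71.7, 347 ± 14.2 and 199 ± 19.4, ATP5G2 from 676 ± 76.5 to 249 ± 69.6, 325 ± 34.7 and 138 ± 20.3, and ATP5G3 from 252 ± 16.9 to 96.6 ± 25.2, 108 ± 9.74 and 44.7 ± 4.25. Changes with NVP-2 were -1.82, -2.28 and -2.47 (SE 0.20, 0.22 and 0.20), and 0.72, 0.25 and 0.069 relative to the median gene. The order of their group means was the same in each group.

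Symbols that are no subunits behaved differently from one another. ATP5SL, whose product acts in complex I assembly, went from 66, 74.3 and 77.5 FPKM to 5.60, 10.0 and 10.1 under SNS-032, 11.7, 14.2 and 12.3 under THAL-SNS-032, and 8.92, 9.13 and 7.63 under NVP-2 (-2.98, -2.43 and -2.94, SE 0.19). ATP5EP2, a pseudogene of ATP5E, was at 91.4, 106 and 108 FPKM in DMSO, 87.8, 137 and 142 under SNS-032, 106, 132 and 113 under THAL-SNS-032, and 67.3, 81.9 and 71.3 under NVP-2. Its values of 0.24 and 0.20 with SNS-032 and THAL-SNS-032 did not pass (adjusted p = 0.25 and 0.33, limma), and it fell by 0.46 with NVP-2 (SE 0.20, adjusted p = 0.033). Without SNS-032 replicate 1 it was called higher with SNS-032 (0.46, adjusted p = 0.0029), and the NVP-2 call was lost without DMSO replicate 2 (-0.43) or 3 (-0.42) or NVP-2 replicate 1 (-0.40) or 3 (-0.45).

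UQCRBP1, a pseudogene of UQCRB, changed by -0.49, -0.32 and -1.20 (SE 0.21) and did not pass with THAL-SNS-032 (adjusted p = 0.14, limma). Its SNS-032 call (adjusted p = 0.035) was lost without SNS-032 replicate 1 (-0.24), DMSO replicate 1 (-0.50) or DMSO replicate 3 (-0.41), or without a filter (adjusted p = 0.055), and the THAL-SNS-032 value passed without SNS-032 replicate 1 (adjusted p = 0.018). UQCRHL, a near copy of UQCRH, changed by -1.36, -1.01 and -2.03 (SE 0.23). COX7A2L, a factor of supercomplexes of the chain, changed by -1.20, -1.20 and -2.19 (SE 0.20), and ATP5S by -1.69, -1.34 and -1.93 (SE 0.18). ATP5E and ATP5EP2, UQCRB and UQCRBP1, and UQCRH and UQCRHL are near-identical, so reads may have been split between them and their values are uncertain.

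The compounds were compared at the same 250 nM and 6 h, in 3 pairs. NVP-2 left lower levels than SNS-032 for 67 members (52.6% of all genes were called lower) and higher for 0 (0.782%), with a median difference of -0.67 against -0.48 over all genes. The count moved with single libraries and was 36 without SNS-032 replicate 2, 32 without SNS-032 replicate 3, 39 without NVP-2 replicate 1 and 38 without NVP-2 replicate 3. THAL-SNS-032 left higher levels than NVP-2 for 80 members (70.0% of all genes) and lower for 0 (0.993%), with a median difference of 0.89 against 0.64. At an unadjusted p under 0.05 in limma, both counts of 0 were still 0. Relative to the median gene the first pair had 24 members lower and 8 higher (30.9% and 45.3% of all genes) and the second 55 higher and 0 lower (34.8% and 31.9%). In every library of THAL-SNS-032 each tested member was above its NVP-2 values.

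UQCRFS1 differed most between compounds. It was lower with NVP-2 than with SNS-032 by -3.68 (SE 0.22, adjusted p = 8.3e-09, limma) and higher with THAL-SNS-032 than with NVP-2 by 2.41 (adjusted p = 3e-06). NDUFV2 and NDUFS3 followed in the first pair, at -1.63 and -1.38, and NDUFS4 and NDUFS3 in the second, at 1.52 and 1.47.

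THAL-SNS-032 differs in structure from SNS-032 by its linker and cereblon ligand. Between this pair 1 member was lower with THAL-SNS-032 (16.7% of all genes) and 3 were higher (13.4%). Relative to the median gene 3 were lower and 49 higher (27.1% and 42.0%). On the spike-in level scale the 95% interval stayed inside a 2-fold difference for 77 of 80 members, and for 76.9% of all tested genes. UQCRFS1 was the lower one (-1.27, SE 0.22, 95% interval -1.74 to -0.81, adjusted p = 0.00055, limma). NDUFS1 (0.63, SE 0.19, adjusted p = 0.023) and ATP5SL (0.56, SE 0.19, adjusted p = 0.043) were among the higher ones.

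The difference of UQCRFS1 kept its call whichever library was left out. Without SNS-032 replicate 1 the sizes of NDUFS1 and ATP5SL came down to 0.39 and 0.31. NDUFS1 lost it without THAL-SNS-032 replicate 1 (adjusted p = 0.052, limma), 2 (adjusted p = 0.10) or 3 (adjusted p = 0.053), and ATP5SL lost it without any 1 of DMSO replicates 1 to 3, THAL-SNS-032 replicates 1 to 3 or NVP-2 replicates 1 to 3 (adjusted p from 0.056 to 0.16), or without a filter (adjusted p = 0.083). The count of 3 was 6 without SNS-032 replicate 2 and 1 without THAL-SNS-032 replicate 1, 2 or 3, and the count of 1 was 3 without SNS-032 replicate 1. The means of 75 members ran in the order DMSO, THAL-SNS-032, SNS-032, NVP-2 from high to low, an order that 52.3% of all tested genes had, and this placing of the middle pair includes the low SNS-032 replicate 1. Library medians of the members were -1.74, -1.04 and -1.03 for SNS-032 and -1.17, -0.95 and -1.07 for THAL-SNS-032, so they overlapped.

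Members with longer coding sequences tended to have larger falls. Over 78 tested members with a coding length in GENCODE 29, Spearman's rho between coding length and change was -0.66, -0.65 and -0.64, and over 10359 tested genes it was 0.016, 0.0044 and 0.058. With transcript length it was weaker in the members, at -0.22, -0.25 and -0.24. With the number of exons it was -0.49, -0.43 and -0.43, and with the span of the transcript on the genome -0.41, -0.41 and -0.40. This is a description across genes, which are not independent and share the same libraries, and FPKM itself is divided by transcript length. Within complex V (17 genes) rho with coding length was -0.79, -0.89 and -0.81, and within complex I (37 genes) -0.44, -0.40 and -0.40. Within the arms of complex I it was weaker, at -0.37, -0.22 and -0.25 in the matrix arm and -0.25, -0.24 and -0.22 in the membrane arm. The span on the genome gave -0.62, -0.52 and -0.53 in the matrix arm and 0.14, 0.083 and 0.13 in the membrane arm. The 39 members with at most 417 coding bases had medians of -1.08, -0.89 and -1.72 and the 39 longer ones -1.64, -1.41 and -2.44. All genes divided at the same length stood at -1.54, -1.41 and -2.14 (658 genes) and -1.99, -1.97 and -2.61 (9701 genes). The median coding length was 577.5 bases in the matrix arm of complex I, 399 in its membrane arm and 292.5 for the common isoforms of complex IV. Coding length and role therefore move together, and their parts in the result were not tested.

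**Figure D4:**
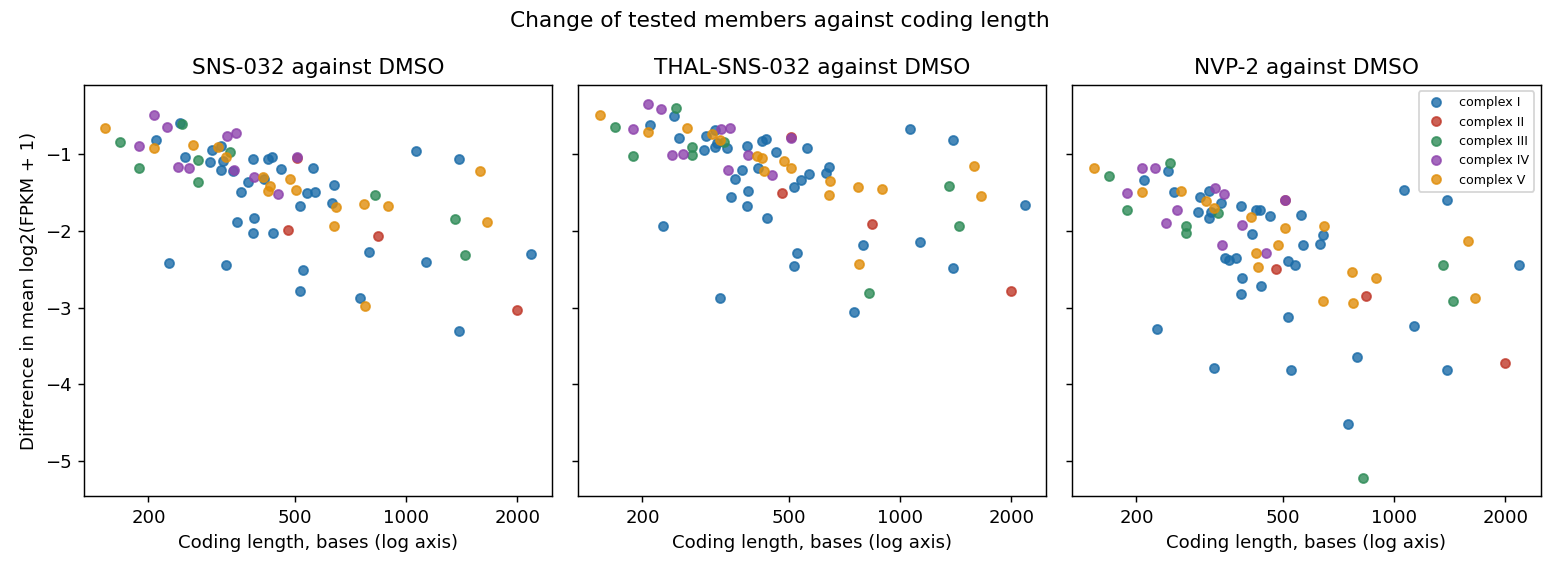
Difference from DMSO in mean log2(FPKM + 1) of tested members against coding length in bases (log axis), coloured by complex, for the 3 compounds. Short members tend to lie higher than long ones, with Spearman's rho of -0.66, -0.65 and -0.64 over 78 members and with exceptions such as NDUFC1 (228 bases, -3.28 with NVP-2) and NDUFV1 (1392 bases, -1.59).

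DMSO level and change had rho of opposite sign over the members as a whole and over all genes. Over the 80 members rho was 0.34, 0.33 and 0.27, abundant members tending to fall less, but within complex III (10 genes) it was -0.59, -0.55 and -0.52, and over all 11381 tested genes it was -0.30, -0.26 and -0.48. The points share the libraries, DMSO enters both measures, and no part of level was tested.

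Promoters of 69 of the 88 members were found in the set of RefSeq promoters used here, 64 of them tested. A YY1 match was present in 25% of these, in 7.93% of 8835 tested genes with a promoter and in 3.19% of all 35116 promoters. Members and tested genes entered with 1 promoter each, the first entry of the symbol, whereas the last share counts every promoter entry and not genes. The NRF1 core was present in 31.3%, 16.5% and 7.52%, the ETS motif in 29.7%, 21.7% and 10.3%, the GC box in 26.6%, 53.9% and 33.1% and TATAAA in 9.38%, 5.17% and 11.5%. The 16 tested members with a YY1 match, NDUFV2 and UQCRFS1 among them, had median changes of -1.83, -1.67 and -2.63, and the other members with a promoter -1.18, -0.98 and -1.82. The 19 with an ETS match, such as COX8A and UQCRQ, had -1.04, -0.82 and -1.72 against -1.47, -1.21 and -2.28. With the NRF1 core (20 members, SDHA among them) the medians were -1.50, -1.33 and -2.42, against -1.20, -1.0 and -1.86. With the GC box (17 members, NDUFV2, UQCRFS1 and ATP5E among them) they were -1.32, -1.09 and -2.04, against -1.22, -1.02 and -1.93. Over all tested genes the medians were -2.04, -2.06 and -2.76 with a YY1 match and -1.95, -1.94 and -2.58 without, and -2.03, -2.07 and -2.75 with the NRF1 core and -1.94, -1.93 and -2.56 without. For the ETS motif they were -2.0, -2.04 and -2.77 with and -1.94, -1.92 and -2.55 without, the opposite direction to that in the members. For the GC box they were -1.98, -1.97 and -2.60 with and -1.94, -1.92 and -2.60 without. Motif and role overlap: members with a YY1 match include matrix arm genes of complex I such as NDUFV2 and NDUFS3. Those with an ETS match include complex IV genes such as COX4I1, COX6B1 and COX8A. The motifs also overlap each other: NDUFS1, NDUFS3, SDHB, ATP5J and COX6A1 each held both a YY1 and an ETS match. Relative to the median gene, NDUFS3 stayed below 0 with each compound, while COX6A1 of complex IV stood at 1.16, 1.23 and 1.10. The parts of motif and role were not tested. A match is a run of letters and not a measured site, and the windows say nothing of binding.

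Assembly factors and mitochondrial ribosomal proteins had larger median falls than the subunits. All 45 tested assembly factor genes, whose products build the complexes, fell with each compound (medians -2.35, -2.25 and -2.76), where 94.6%, 94.8% and 97.1% of all tested genes did, with TMEM70, needed for ATP synthase assembly, at -4.40, -4.51 and -5.43. A list of 6 genes tied to the chain or ATP synthase that the symbols do not catch fell as well (medians -1.55, -1.41 and -2.34). It holds CYC1, the cytochrome c1 of complex III (-2.10, -1.83 and -2.68), and also ATPIF1, an inhibitor of ATP synthase and not a subunit of the chain. The 82 tested cytosolic ribosomal protein genes had medians of -1.0, -0.75 and -1.78 and the 78 tested mitochondrial ribosomal protein genes -2.72, -2.77 and -3.95, so the subunits lay between, nearer to the former. Relative to the median gene the assembly factors stood at -0.43, -0.35 and -0.22, the mitochondrial ribosomal proteins at -0.80, -0.86 and -1.41 and the cytosolic ones at 0.93, 1.15 and 0.76. None of these contrasts between lists was tested.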

How the data were processed

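The 12 libraries were grouped by their titles. Per the submitters' processing notes the authors used HISAT, Cufflinks 2.0.0 and hg19, and the annotation is not given in the sources used here. The authors deposited FPKM for each gene, and per the labels' protocols ERCC spike-ins were added at lysis. They were used as log2(FPKM + 1). Of 23713 entries, 92 ERCC and 2 repeated symbols were removed. The 11381 genes averaging at least 1 FPKM entered 1 limma 3.58.1 fit with trend in R 4.3.3, over 4 groups with 8 residual degrees of freedom. It gave 6 two-sided comparisons, Benjamini-Hochberg adjusted over all tested genes and called under 0.05. The test was checked on simulated data with independent noise for each gene and few genes changed. That check does not cover a shift shared by all genes of a library, as in SNS-032 replicate 1, or a change of nearly all genes. Alternatives (23) changed 1 choice at a time, except 1 that left out symbols of no subunit and also moved NDUFA4 to complex IV.

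Members, lists and tests were chosen with earlier results of these data known. Named are, by rule, the highest in DMSO and the extremes of each complex, members not called, the 3 largest differences between compounds, isoform sets, and symbols that are no subunits. Members at the ends of a group's range, structural roles and motifs were chosen after values were seen. Coding lengths are from GENCODE 29 and promoters from RefSeq, used by symbol only, since the builds differ from hg19. 1 item is not reported here.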

Additional observations from a re-analysis of the deposited data

How the results depend on the processing

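The number of members called lower against DMSO stayed within 1.5 times of the reported count in every alternative except relative to the median gene, where it was 13 for SNS-032, 10 for THAL-SNS-032 and 16 for NVP-2. On that scale the medians of all members were 0.63, 0.87 and 0.59 in the same order of compounds, those of complex I 0.52, 0.69 and 0.36, of complex II -0.11, 0.20 and -0.13, of complex III 0.80, 0.95 and 0.69, of complex IV 0.88, 1.11 and 0.95, and of complex V 0.56, 0.79 and 0.50. THAL-SNS-032 against SNS-032 then gave 3 members lower and 49 higher, and NVP-2 against SNS-032 gave 24 lower and 8 higher. These turns follow from taking out the median of all genes. Of 112 results on single members, 98 kept their call and direction in each other alternative that gave them (109 were given with a minimum mean of 5 FPKM and 93 over subunits only, the rest by all), and 72 reversed on this scale. The reversed values, in the order SNS-032, then THAL-SNS-032, then NVP-2, were ATP5E 1.26, 1.41 and 1.36, ATP5G1 0.63, 0.89 and 0.72, ATP5G2 0.45, 0.85 and 0.25, ATP5G3 0.51, 0.68 and 0.069, ATP5S 0.24, 0.56 and 0.60, COX4I1 0.88, 1.11 and 0.95, COX5A 0.41, 0.64 and 0.26, COX6A1 1.16, 1.23 and 1.10. They were also COX6B1 0.75, 0.91 and 0.82, COX6C 1.28, 1.49 and 1.36, COX7A2 1.21, 1.24 and 1.02, COX7A2L 0.72, 0.70 and 0.35, COX7B 0.76, 0.90 and 0.65, COX7C 1.03, 1.23 and 1.04, COX8A 1.44, 1.57 and 1.36, NDUFA13 0.89, 1.10 and 0.82. The remaining triples were NDUFA4 1.34, 1.40 and 1.32, SDHC 0.88, 1.13 and 0.94, UQCRBP1 1.44, 1.58 and 1.34, UQCRH 0.85, 1.00 and 0.61, UQCRHL 0.57, 0.89 and 0.51, UQCRQ 1.32, 1.51 and 1.43. Reversed with some compounds only were UQCRFS1 (0.39, SNS-032), NDUFS1 (0.24, THAL-SNS-032, and 0.099, NVP-2), SDHD (0.40 and 0.044, likewise) and ATP5EP2 (2.07, NVP-2).

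With a pseudocount of 0.1 the median of complex V with NVP-2 was -2.16, and with 5 that of complex II was -2.54. The median of complex IV with THAL-SNS-032 was -0.66 without a filter and -0.68 over subunits only, with NDUFA4 in complex IV. With only the 6 libraries of a pair, 1 member was higher under THAL-SNS-032 than SNS-032 and 35 were lower under NVP-2 than SNS-032, with fewer samples behind the spread. SNS-032 calls of COX8A, NDUFA4, UQCRBP1 and UQCRQ were lost there, and THAL-SNS-032 values of COX6C, COX8A, UQCRBP1 and UQCRQ passed. Leaving out 1 library at a time gave 1 to 6 members higher and 1 to 3 lower for THAL-SNS-032 against SNS-032, 32 to 79 lower for NVP-2 against SNS-032, medians of -0.89 to -0.74 for complex IV with THAL-SNS-032 and medians of -2.16 to -2.01 for complex V with NVP-2. The cause of these moves was not tested. A minimum mean of 5 FPKM and limma without trend or with robust changed none of the results they gave. Equal spike-in medians changed none either, but these medians already lay between -0.027 and 0.038 (log2) of the DMSO mean. That setting could therefore move little.

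Replicate numbers recur across groups. Correlations of deviations were -0.15 to 0.17 in 18 pairs of same-numbered libraries and -0.22 to 0.13 in 36 other pairs. Of 12 libraries, 5 correlated best with their own number, and the main fit did not take the numbers as pairing. A correlation does not see a shift of a whole library. The median of all tested genes was lowest in replicate 1 of each group, at -0.083 in DMSO, -2.32 under SNS-032, -1.96 under THAL-SNS-032 and -2.61 under NVP-2. Whether the numbers mark a shared batch was not tested. With the replicate block 7 members were higher under THAL-SNS-032 than SNS-032, and COX6C and UQCRQ were called lower with THAL-SNS-032. Without counts, the depth limit on the lowest members is unknown.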

Other observations

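All 18 tested genes of the TCA cycle, which supplies NADH and succinate to the chain, fell with each compound, as 94.6%, 94.8% and 97.1% of all tested genes did (medians -1.87, -1.79 and -2.68 in the order SNS-032, then THAL-SNS-032, then NVP-2), as did all 26 tested genes of mitochondrial protein import (-2.25, -2.35 and -3.38), which brings nuclear-encoded subunits into the organelle. Relative to the median gene these medians were 0.06, 0.12 and -0.14 for the TCA cycle and -0.32, -0.44 and -0.84 for import.

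All 19 tested genes of mitochondrial transcription and its nuclear regulators fell as well, again near the share of all genes (medians -2.15, -2.48 and -3.17, or -0.22, -0.57 and -0.63 relative to the median gene). NRF1, a regulator of subunit promoters, changed by -1.42, -1.92 and -3.10 on the log2 scale. GABPB1, the partner of GABPA, changed by -2.50, -3.63 and -4.38, and YY1 by -2.15, -2.92 and -4.15. GABPA itself went from a mean of 42.9 FPKM in DMSO to 15.5, 11.6 and 6.40, and GABPB2 from 10.4 to 2.75, 3.47 and 2.54. TFAM, which packages and transcribes mitochondrial DNA, changed by -1.60, -2.13 and -3.17. The median of all tested genes was -1.92, -1.90 and -2.54, so NRF1 and TFAM fell less than the median gene with SNS-032. On the same scale GABPA fell less than the median gene with SNS-032 and, narrowly, with THAL-SNS-032. GABPB2 did so with each compound, but it is a low gene, whose change this scale understates.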
